A study of Mus musculus with 4 samples.

Results

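The genes described here serve protein folding, N-glycosylation and protein degradation in the endoplasmic reticulum (ER). They were compared between knockout and wild-type pancreas of mouse embryos at E18.5. The list names 44 genes, and a gene was measured through every non-control probe whose RefSeq accession belongs to it. That gave 76 probes for 42 genes, of 17305 genes that have a named probe on the array. Dnajb11 and Pdia3 had no such probe and are named only. Of the 42 genes, 41 could be tested, and Herpud1 could not, because its spot was marked non-uniform on 2 of the 4 arrays.

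Each of 4 Agilent two-colour arrays held 1 extract from a Cyp11a1 knockout pancreas, labelled red, and 1 from a wild-type pancreas, labelled green. All extracts came from strain C57BL/6JNarl. Cyp11a1 makes pregnenolone from cholesterol, the entry step of steroid hormone synthesis. The labels give no conditional allele and no Cre, and they do not say whether an extract came from 1 embryo or from several. The values below are log2 ratios of knockout over wild type after loess normalisation, with positive values higher in knockout. No array had the dyes swapped, so an effect of the dye on a probe and an effect of the genotype cannot be told apart. Whole pancreas was measured, so fewer cells of a type and less RNA per cell cannot be told apart either.

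Proteins that enter the ER are bound by the Hsp70 chaperone BiP and its helpers or, once glycosylated, by calnexin and calreticulin. Protein disulfide isomerases form and rearrange their disulfide bonds. Chains that do not fold are recognised by their trimmed sugars, moved back to the cytosol and degraded by the proteasome. The unfolded protein response, through its sensors Ire1, Atf6 and Perk, raises transcription of this machinery when folding demand exceeds capacity. Acinar cells of the pancreas make large amounts of secreted enzymes and are known for a dense rough ER.

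Promoters of some of these genes carry the ER stress element, to which Atf6 and the product of spliced Xbp1 are known to bind with NF-Y. RefSeq promoter windows of GRCm38.p6, from 250 bases before to 50 bases after the start of transcription, were matched by symbol for 39 of the 44 genes. Each was searched on both strands for the ER stress element (ERSE), which is CCAAT and CCACG with 9 bases of any kind between them. It was found in 9 of the 39 genes (23.1%), against 37 of 27025 genes in the whole table (0.137%). Of 9 chaperones with a window 6 had it, of 10 disulfide enzymes 1, of 8 degradation genes 2, and of the prolyl isomerases, glycosylation genes and sensors 0. The contrast with the whole table is a description and not a test, because some genes of the list are known for the element. The rest of the 39 had no exact match in the window. The elements are shown because they are the sequence that these 9 genes share. They are read so that the motif runs forward, in capitals, with 6 bases on each side, and the strand named is the one printed.
Hspa5 (chr2:34772019-34772049, + strand): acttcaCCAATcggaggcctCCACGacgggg
Hsp90b1, far element (chr10:86705632-86705662, - strand): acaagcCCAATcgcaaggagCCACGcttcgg
Hsp90b1, near element (chr10:86705527-86705557, + strand): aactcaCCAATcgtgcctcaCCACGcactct
Calr (chr8:84847069-84847099, + strand): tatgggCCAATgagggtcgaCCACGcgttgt
Canx (chr11:50325794-50325824, - strand): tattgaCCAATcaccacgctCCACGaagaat
Creld2 (chr15:88819514-88819544, - strand): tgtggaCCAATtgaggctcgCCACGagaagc
Dnajc3 (chr14:118937821-118937851, + strand): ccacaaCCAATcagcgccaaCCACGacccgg
Pdia6 (chr12:17266485-17266515, + strand): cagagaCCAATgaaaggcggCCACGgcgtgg
Derl3 (chr10:75893236-75893266, - strand): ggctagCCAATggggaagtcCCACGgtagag
Syvn1 (chr19:6046526-6046556, + strand): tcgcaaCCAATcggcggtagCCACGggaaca

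The related element ERSE-II, which is ATTGG and CCACG with 1 base of any kind between them, was found in 2 of the 39 genes (5.13%), against 0.0444% of all genes in the table, in Herpud1 upstream of the start site and in Dnajb11 after it. Herpud1, the ERSE-II gene on the array, is shown because its ratio lay farther below 0 than that of any tested gene of the list.
Herpud1 (chr8:94386371-94386393, + strand): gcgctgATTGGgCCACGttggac

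The full stretches upstream of Hspa5 and Hsp90b1 place these elements in context. In Hspa5 the motif begins at position -65 from the start site. The Hspa5 stretch is chr2:34771840-34772089 on the + strand. The Hsp90b1 stretch is chr10:86705445-86705694 on the - strand and holds 1 element in each orientation, so the near one appears as CGTGG followed by ATTGG.
Hspa5, 250 bases upstream: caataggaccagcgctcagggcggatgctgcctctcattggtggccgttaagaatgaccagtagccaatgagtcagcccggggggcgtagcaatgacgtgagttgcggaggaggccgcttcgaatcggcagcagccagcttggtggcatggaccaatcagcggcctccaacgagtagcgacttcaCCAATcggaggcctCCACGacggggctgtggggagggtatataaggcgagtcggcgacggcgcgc
Hsp90b1, 250 bases upstream: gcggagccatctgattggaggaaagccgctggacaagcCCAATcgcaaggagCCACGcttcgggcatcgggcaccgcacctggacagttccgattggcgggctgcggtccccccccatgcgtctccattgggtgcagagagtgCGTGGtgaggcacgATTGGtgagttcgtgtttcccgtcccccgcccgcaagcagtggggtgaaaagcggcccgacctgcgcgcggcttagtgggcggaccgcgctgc

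On each of the 4 arrays all 76 probes passed the test against background in red and in green. The median spot signal was 304 to 467 in red and 163 to 224 in green, and the share of spots above background ranged from 78.2% to 85.1%. Pancreas markers were measured throughout: 18 of 20 acinar products were tested, with 6 higher and 6 lower in knockout, and none of Ins1, Ins2 and Gcg passed the limma test. Of 6 tested liver markers 0 passed in limma (adjusted p at least 0.162, none with an unadjusted p under 0.05 except Apoa1), but their median was 2.40, 1.47, -1.25 and 1.03 on arrays 1 to 4. Of the other cell types, 1 of 9 mesenchyme markers was higher (Pdgfrb), 1 of 6 endothelial markers (Tek) and 2 of 12 islet markers (Chga and Chgb) were lower, and of 8 duct and 6 blood markers 0 passed. Their part in the results below was not tested.

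Of the 41 tested ER genes, 9 (21.95%) were higher in knockout, against 9.45% of all 15524 genes tested, at a limma adjusted p under 0.05. None was lower in limma, against 5.11% of all genes. On the lower side 5 had an unadjusted p under 0.05 and on the higher side 18. Over both directions 4777 of all 15524 genes had such a p. Without replicate 2 there were 3 lower (Dnajb9, Edem3 and Herpud1), beside 649 of all 15376 genes tested there. Without replicate 1 there was 1 (Herpud1), beside 369 of 15439. With 1 replicate left out, values on 2 arrays were enough for a test. Herpud1 was thus tested there on arrays 3 and 4, and Dnajb9 without replicate 2 on arrays 1 and 4. The increases ranged from 1.15-fold to 1.46-fold with loess, and for the same 9 genes from 1.60-fold to 2.18-fold with median centring, where the median of all genes was also above 0 (0.26 on the log2 scale). The median of the 41 genes was 0.15, beside 0.013 for all genes tested, and 28 of them lay above 0. The count rests on the array set: without replicate 4 it was 2 (Ppib and Edem2) and without replicate 2 it was 5. In the fit without the array as a block it was 0. The count over all genes fell as well. It was 659 of 15294 without replicate 4, 1015 of 15376 without replicate 2 and 77 of 15524 without the block.

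**Figure D1:**
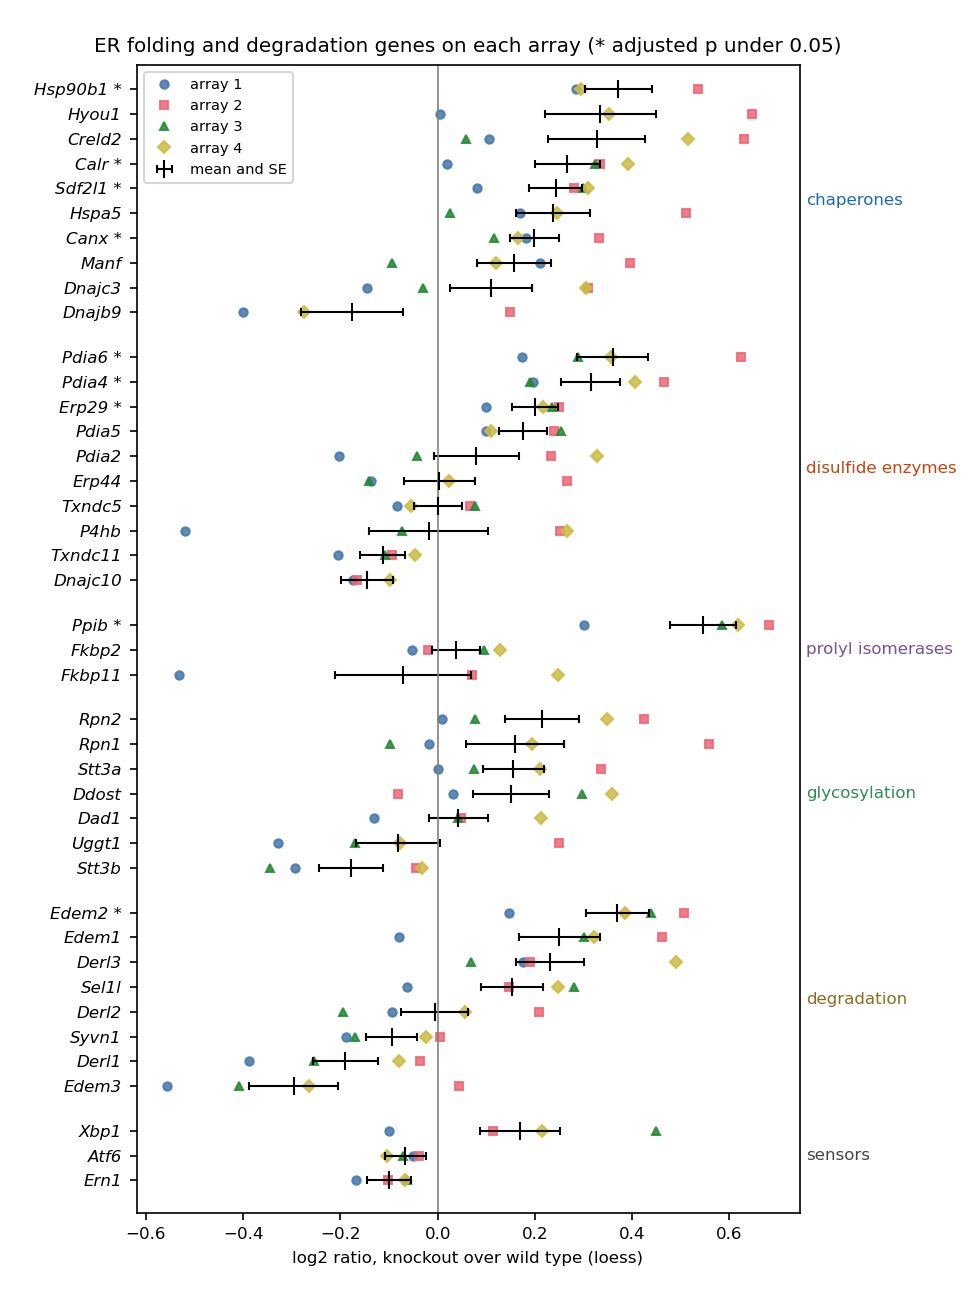
Log2 ratio of knockout over wild type (x axis, loess) for each of the 41 tested ER genes (rows, grouped by role). Coloured points are the 4 arrays, and the black mark and bar are the mean and SE of the limma fit. An asterisk marks the 9 genes past the threshold, all higher in knockout. Array 1 is the lowest point of many genes and array 2 the highest.

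The chaperones were the group with the highest median, at 0.24. With loess 4 of 10 tested (40%) rose, beside 9.45% of all genes tested. The others did not pass, and 0 fell. Hsp90b1 encodes Grp94, the Hsp90 of the ER. It was at 0.28, 0.54 and 0.30 on arrays 1, 2 and 4, and its spot on array 3 was left out as non-uniform. The 3 values lay above 0, with array 2 the highest, and gave 0.37 ± 0.069 (SE, n = 3 arrays, limma adjusted p = 0.018). With that spot kept the fourth value was 0.30. Without replicate 4, which left arrays 1 and 2, the gene did not pass (0.41, limma adjusted p = 0.0506).

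Calreticulin and calnexin, the lectin chaperones of glycoproteins, were both higher. Calr was at 0.019, 0.33, 0.32 and 0.39, so array 1 was near 0 and the other three were alike (0.27 ± 0.067, n = 4 arrays, limma adjusted p = 0.038). Canx was at 0.18, 0.33, 0.12 and 0.17, above 0 on every array (0.20 ± 0.051, n = 4 arrays, limma adjusted p = 0.040). Sdf2l1, a partner of the BiP cochaperones, was at 0.082, 0.28, 0.30 and 0.31 (0.24 ± 0.054, n = 4 arrays, limma adjusted p = 0.025). Calr did not pass without replicate 2, 3 or 4 (limma adjusted p = 0.092 to 0.13), Sdf2l1 without replicate 2, 3 or 4 (0.061 to 0.0995) and Canx without any of the 4 (0.071 to 0.106). Calr also missed the threshold with a loess span of 0.7, with scaling between arrays and with the mean of its probes (limma adjusted p = 0.051 to 0.055). Canx missed it with that span, with the deposited processed signals or log ratio (0.052 to 0.097) and with the mean of its probes (0.11, limma adjusted p = 0.37).

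Hspa5 encodes BiP, the most abundant ER chaperone and the usual readout of the unfolded protein response. Its median spot signal was 44636, 61304, 84901 and 54818 in red and 14526, 19130, 23902 and 26737 in green on arrays 1 to 4. After normalisation the ratios were 0.17, 0.51, 0.026 and 0.25, all above 0 but spread over more than their mean. The gene did not pass (0.24 ± 0.076, 95% interval 0.061 to 0.41, n = 4 arrays, limma adjusted p = 0.078).

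Hyou1, the large ER Hsp70, was at 0.0046, 0.65 and 0.35 on arrays 1, 2 and 4 (0.33 ± 0.11, n = 3 arrays, limma adjusted p = 0.102). Creld2, an ER stress protein that binds disulfide isomerases, was at 0.11, 0.63, 0.058 and 0.51 (0.33 ± 0.099, n = 4 arrays, limma adjusted p = 0.067). Both had means as high as those of genes that passed, and both were close to 0 on array 1. Hyou1 passed without replicate 1 (0.50, limma adjusted p = 0.039), where only its values on arrays 2 and 4 were left. Its spot on array 3, left out as non-uniform, gave 0.071, and with it kept Hyou1 did not pass (0.27 ± 0.10, limma adjusted p = 0.12). Creld2 passed without replicate 3 (0.42, limma adjusted p = 0.045) and with array weights (limma adjusted p = 0.045). Manf, a secreted ER stress protein, stood at 0.16 ± 0.076 and Dnajc3, a BiP cochaperone, at 0.11 ± 0.084.

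Dnajb9, the BiP cochaperone ERdj4, had the lowest value of the chaperones. It was at -0.40, 0.15 and -0.27 on arrays 1, 2 and 4 (-0.18 ± 0.105, n = 3 arrays, limma adjusted p = 0.31). Its signs were mixed, and with median centring its value was 0.26. When every probe was fitted on its own, another Dnajb9 probe (A_52_P613358) was lower at -0.33 ± 0.070 (limma adjusted p = 0.024), and the third gave -0.15. Without replicate 2 the main probe also passed as lower (-0.34, limma adjusted p = 0.035), on arrays 1 and 4 alone. Its spot on array 3, left out as non-uniform, gave -0.60, and with it kept the probe did not pass (-0.28 ± 0.11, limma adjusted p = 0.12).

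Of 10 tested disulfide enzymes, 3 (30%) rose and 0 fell, beside 9.45% and 5.11% of all genes tested. The group median was 0.041. Pdia6 encodes the isomerase P5, which works with BiP. It was at 0.17, 0.62, 0.29 and 0.36, above 0 throughout and highest on array 2 (0.36 ± 0.073, n = 4 arrays, limma adjusted p = 0.019). Pdia4, the isomerase ERp72, was at 0.20, 0.47, 0.19 and 0.41 (0.31 ± 0.061, n = 4 arrays, limma adjusted p = 0.017). Without replicate 4 neither passed (limma adjusted p = 0.059 and 0.065). Erp29, a folding factor related to the isomerases but without their active site, was at 0.0999, 0.25, 0.23 and 0.22 (0.20 ± 0.047, n = 4 arrays, limma adjusted p = 0.030). It did not pass without replicate 2, 3 or 4 (limma adjusted p = 0.070 to 0.11), nor with the deposited processed signals or log ratio (0.080 and 0.078).

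The isomerase P4hb, the founding member of the family, was at -0.52, 0.25, -0.073 and 0.27. Its mean of -0.019 ± 0.12 thus covered values on both sides of 0, with a 95% interval of -0.30 to 0.27. Pdia2, an isomerase made mainly in pancreas, was at -0.20, 0.23, -0.042 and 0.33 (0.079 ± 0.087). Its arrays fell in the same order as those of P4hb. Pdia5 was above 0 on every array, at 0.0994, 0.24, 0.25 and 0.11, and missed the threshold (0.18 ± 0.049, n = 4 arrays, limma adjusted p = 0.053). Pdia5 passed with span 0.7, scaling between arrays, the strict filter, the mean of probes and trended robust eBayes (limma adjusted p = 0.038 to 0.049).

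Erp44, which retains unassembled proteins, stood at 0.0029 ± 0.073, and Txndc5 at 0.00085 ± 0.049. Txndc11 (-0.11 ± 0.047) and Dnajc10, the disulfide reductase ERdj5, had the lowest values among these enzymes. Dnajc10 was at -0.17, -0.17 and -0.098 on arrays 1, 2 and 4 (-0.15 ± 0.053, n = 3 arrays, limma adjusted p = 0.12). Its spot on array 3, left out as non-uniform, gave -0.20. With that spot kept Dnajc10 just missed the threshold (-0.16 ± 0.044, limma adjusted p = 0.051). With median centring Txndc11 and Dnajc10 were above 0, at 0.41 and 0.28.

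Of 3 prolyl isomerases, which speed the turning of proline bonds, Ppib showed the largest change of the whole list. Ppib encodes cyclophilin B. Its median spot signal was 59580, 63912, 89454 and 47988 in red and 17466, 17713, 17206 and 18206 in green. The ratio was 0.30, 0.68, 0.58 and 0.62, lowest on array 1 and well above 0 on all (0.55 ± 0.067 or 1.46-fold, n = 4 arrays, limma adjusted p = 0.0038). It passed without any single replicate, and its other probe gave 0.50 ± 0.092. Fkbp2 was at 0.038 ± 0.050. Fkbp11, a membrane-bound isomerase of secretory cells, was at -0.53, 0.070 and 0.25 on arrays 1, 2 and 4. It so had no common direction (-0.072 ± 0.14, n = 3 arrays). Its spot on array 3, left out as non-uniform, gave -0.42. With that spot kept Fkbp11 did not pass (-0.16 ± 0.12, limma adjusted p = 0.43).

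None of the 7 glycosylation genes passed in limma in either direction. Of them 3 had an unadjusted p under 0.05 (Rpn2, Stt3a and Stt3b), beside 4777 of all 15524 genes tested. The median of the 7 genes was 0.15. Rpn2, a subunit of the oligosaccharyltransferase that moves the sugar chain onto the protein, was highest. It was at 0.0083, 0.42, 0.077 and 0.35 (0.21 ± 0.076, n = 4 arrays, limma adjusted p = 0.102), with arrays 1 and 3 near 0. The subunits Rpn1 (0.16), Ddost (0.15) and Dad1 (0.043) lay above 0 without passing.

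The alternative catalytic subunits of that enzyme had opposite signs. Stt3a, which acts on chains as they enter the ER, was at -0.00028, 0.34, 0.075 and 0.21 (0.16 ± 0.063, n = 4 arrays, limma adjusted p = 0.14). Stt3b, which acts after entry, was at -0.29, -0.044, -0.35 and -0.032 (-0.18 ± 0.066, n = 4 arrays, limma adjusted p = 0.12). On each array Stt3a lay above Stt3b, and the difference between these genes was not tested. With median centring Stt3b was at 0.28, still below Stt3a at 0.66. Uggt1, which re-glucosylates misfolded glycoproteins so that calnexin binds them again, was at -0.082 ± 0.087.

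Of 8 tested degradation genes, 1 (12.5%) rose and 0 fell, beside 9.45% and 5.11% of all genes tested. The median of the 8 genes was 0.073. The Edem lectins trim mannose from misfolded glycoproteins and mark them for degradation, and 1 of the 3 passed. The differences between the 3 genes were not tested. Edem2 was at 0.15, 0.51, 0.44 and 0.39 (0.37 ± 0.064, n = 4 arrays, limma adjusted p = 0.012) and passed without any single replicate. Edem1 was at -0.081, 0.46, 0.30 and 0.32 (0.25 ± 0.084, n = 4 arrays, limma adjusted p = 0.088), with only array 1 below 0, and passed without replicate 1 (0.36, limma adjusted p = 0.022). Edem3 was at -0.56, 0.045, -0.41 and -0.26 (-0.30 ± 0.091, n = 4 arrays, limma adjusted p = 0.068). Without replicate 2, the array on which it lay above 0, Edem3 passed as lower (-0.41, limma adjusted p = 0.015), as it did with array weights (-0.31, limma adjusted p = 0.032). With median centring it was at 0.0027, which is -0.25 after subtraction of the all-gene median.

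Herpud1, an adaptor of the degradation complex and a sensitive target of the unfolded protein response, went down on the arrays on which it could be read. Its ratio was -0.64 on array 3 and -0.58 on array 4. Its spots on arrays 1 and 2 were marked non-uniform, and kept they gave -0.49 and -0.37. With these spots kept, a choice made after seeing the data, Herpud1 was lower at -0.52 ± 0.056 (n = 4 arrays, limma adjusted p = 0.0022) and its mean with median centring was -0.079, or -0.33 after subtraction of the all-gene median. Its median spot signal was 3014 to 5273 in red and 1886 to 3532 in green.

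None of the measured genes of the ligase complex and of the derlins, membrane proteins of the degradation path, passed in limma. Sel1l, Derl3 and Derl1 had an unadjusted p under 0.05, as did 4777 of all 15524 genes tested. Sel1l, the scaffold of the ligase, was at 0.15 ± 0.064, and Syvn1, the ligase Hrd1, at -0.095 ± 0.052. Derl3, a derlin of secretory tissues, was at 0.18, 0.19, 0.069 and 0.49, above 0 on all arrays (0.23 ± 0.070, n = 4 arrays, limma adjusted p = 0.067). Derl3 passed with span 0.7, trended robust eBayes and array weights (limma adjusted p = 0.042 to 0.049). Derl1 was below 0 on all arrays, at -0.39, -0.036, -0.26 and -0.079 (-0.19 ± 0.066, limma adjusted p = 0.097), and Derl2 was at -0.0061 ± 0.069. With median centring Derl1, Derl2 and Syvn1 were above 0, at 0.20, 0.40 and 0.29.

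None of the 3 sensor and transcription factor genes passed in limma, and 0 had an unadjusted p under 0.05. Xbp1, whose transcript is spliced by Ire1 into the active form, was at -0.10, 0.11, 0.45 and 0.21 (0.17 ± 0.083, n = 4 arrays, limma adjusted p = 0.21). No source used here says whether its probe separates the spliced from the unspliced form. Atf6 was at -0.051, -0.038, -0.072 and -0.11, close together and below 0 (-0.066 ± 0.043), and its other probe gave 0.055. Ern1, which encodes Ire1, was at -0.17, -0.103, -0.062 and -0.067 (-0.1004 ± 0.045, n = 4 arrays, limma adjusted p = 0.17). With median centring Atf6 and Ern1 were at 0.46 and 0.23.

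The genes with an ER stress element in the promoter window were compared, as a description, with those without. The 9 with the element had a median of 0.24 and a range of -0.095 to 0.37, and 4 of them rose (Hsp90b1, Pdia6, Calr and Canx). The 27 tested genes with a window but no element had a median of 0.043 and a range of -0.30 to 0.55, and 4 of them rose. Of the 9 with the element 6 were chaperones, so the element and that group largely coincide. Of the 21 tested genes with the element in the whole table, which include these 9, 5 (23.8%) were higher and the median was 0.087. Those 5 include the 4 named above, so this share comes mostly from genes of the list itself. Of the 12380 tested genes with a window and no element, 1175 (9.49%) were higher and the median was 0.014. Ppib and Edem2, the genes with the smallest adjusted p, had none of the searched motifs in the window. The UPRE motif TGACGTGG was found in Txndc5 and Txndc11, neither of which passed, and in 0.714% of all genes.

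Many of the ER genes had the same array as their lowest or highest. Among the 36 ER genes with values on all arrays, 24 (66.7%) were lowest on array 1 and 21 (58.3%) were highest on array 2. Of all 14923 genes with 4 values, 28.0% were lowest on array 1 and 30.4% were highest on array 2. The median of the ER genes was -0.052, 0.25, 0.064 and 0.21 on arrays 1 to 4, whereas that of all genes stayed between 0.017 and 0.022. The order of these medians, with array 1 lowest, then 3, 4 and 2, was also that of the 97 tested other ER genes described further on (-0.034, 0.077, 0.013 and 0.061) and of the 6 acinar transcription factors (0.0095, 0.27, 0.021 and 0.16). The acinar products had another order, with medians of -0.17, 0.071, 0.32 and 0.31, as did the liver markers given above. This description was chosen after seeing the data.

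**Figure D2:**
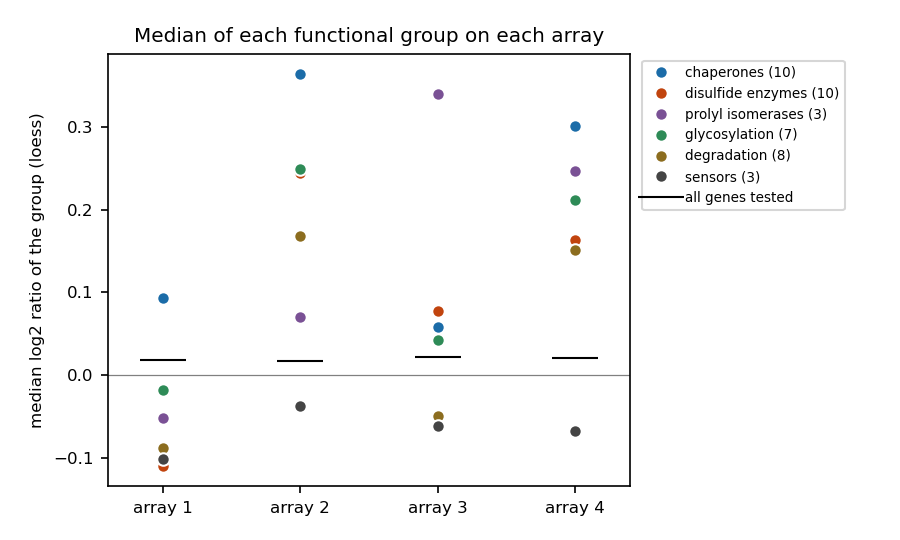
Median log2 ratio (y axis, loess) of each functional group on each of the 4 arrays (x axis), with the number of tested genes of the group in the legend. The black bars are the medians of all genes tested, which stayed between 0.017 and 0.022. The chaperones are above them on all arrays, whereas the other groups are below them on array 1.

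Most genes of the list had bright probes, and this matters for the choice of normalisation. In the unnormalised data red exceeded green by more for bright spots than for dim ones. Of the 41 ER genes, 26 fell in the brightest 10% of genes tested, with probe brightness used here as a property of the spot and not as a transcript level. Among those 10% the median of all genes was 0.53 with median centring and -0.0012 with loess. The ER genes had a median of 0.64 with median centring, 0.39 above the median of all genes, which was itself at 0.26.

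With median centring 40 of the 41 ER genes were higher and 0 lower, while 61.0% of all genes were higher and 15.8% lower. Edem3 was the gene that did not pass. Set against the all-gene median, 38 of 41 lay above it with median centring and 26 of 41 with loess. The 9 genes that rose with loess lay above the median of all genes under both. This had to be so, because they were chosen as high with loess and every ER gene shifted upward with median centring. The 13 genes below 0 with loess were all above 0 with median centring, and 10 of them were also above the median of all genes.

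**Figure D3:**
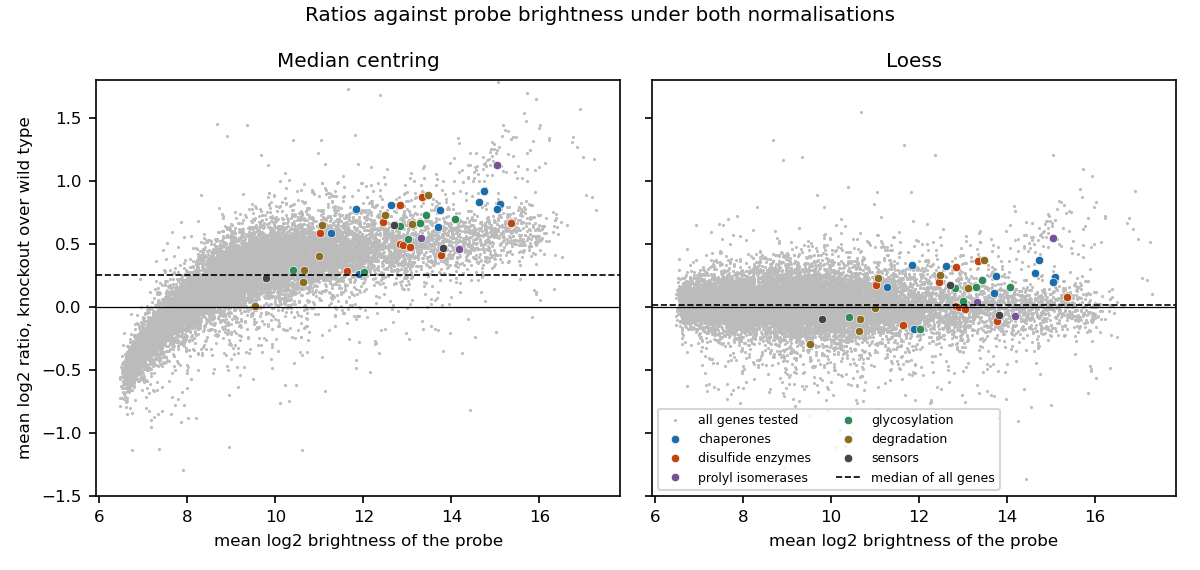
Mean log2 ratio of knockout over wild type (y axis) against mean log2 brightness of the probe (x axis) for all 15524 genes tested (grey) and the 41 ER genes (coloured by role), with median centring on the left and loess on the right. The dashed line is the median of all genes, at 0.26 and 0.013, and values beyond the axis are not drawn. The grey cloud rises with brightness on the left and is level on the right, and most ER genes lie at its bright end.

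**Figure D4:**
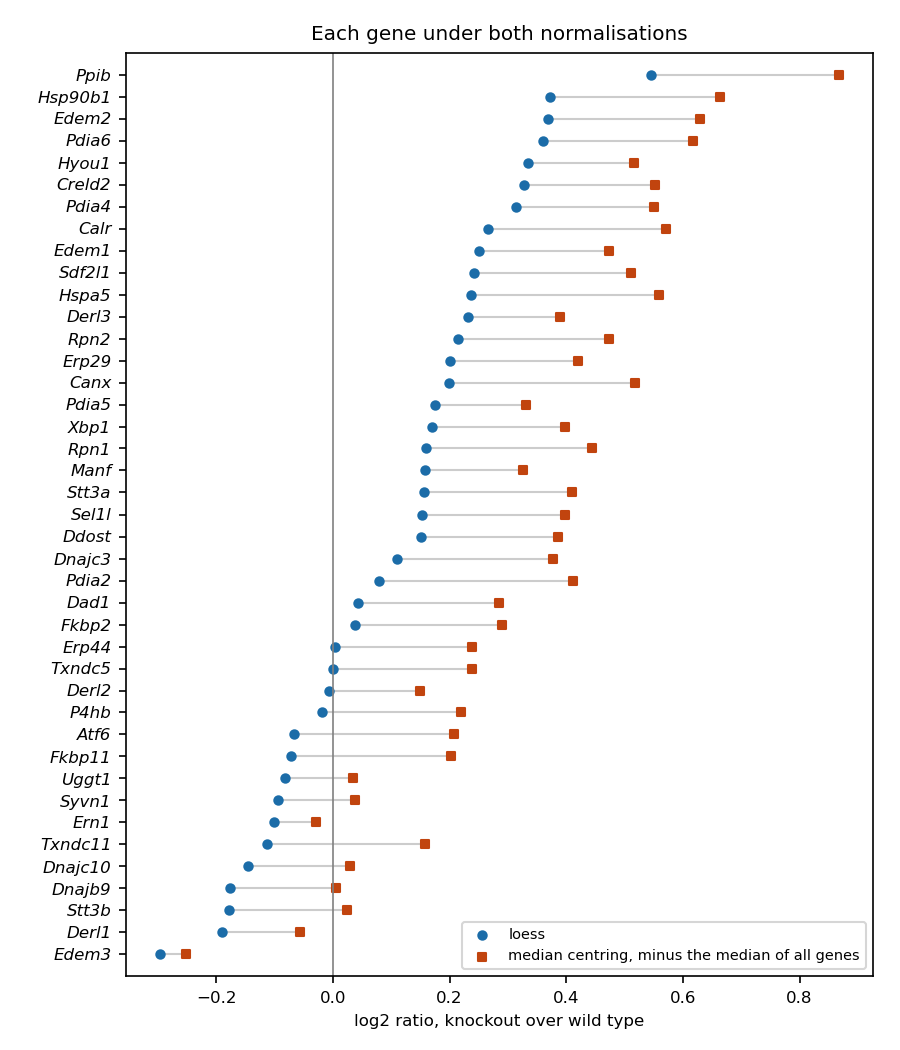
Log2 ratio (x axis) of each of the 41 ER genes (rows, ordered by the loess value) with loess (circles) and with median centring after subtraction of the median of all genes (squares). Every gene shifts to the right with median centring. Edem3, Derl1 and Ern1 are the genes that stay below 0 under both.

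Several genes were read by more than 1 probe. With each probe fitted separately, 12 of 73 ER probes were higher and 1 lower, against 6.63% and 4.11% of 32596 probes. Of 22 genes with more than 1 fitted probe, 15 had the same sign on all of them, and the median range between probes of a gene was 0.13. Both probes of Ppib and of Hsp90b1 passed (Hsp90b1 0.37 and 0.41).

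Pdia6 was less uniform. Its probes A_52_P339495 and A_52_P70810 passed at 0.36 and 0.34, whereas A_51_P297968 stood at 0.061 ± 0.051. The second Calr probe (A_52_P672212) gave 0.20 and the second Canx probe (A_52_P496596) 0.013 ± 0.11, neither past the threshold. Signs differed between probes for Atf6, Dnajc10, Dnajc3, Edem1, Erp44, Rpn1 and Txndc11, none of which had a probe past the threshold. For Edem1 the brightest probe gave 0.25 and the second -0.016, and for Txndc11 they gave -0.11 and 0.093. The second Txndc11 probe (A_52_P150988) was dim, with a red signal of 112 to 201, beside 304 to 467 for the median spot. The Rpn1 probe below 0 (A_52_P656634) was also dim, at 109.5 to 137 in red. No source used here says where these probes lie on their transcripts.

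**Figure D5:**
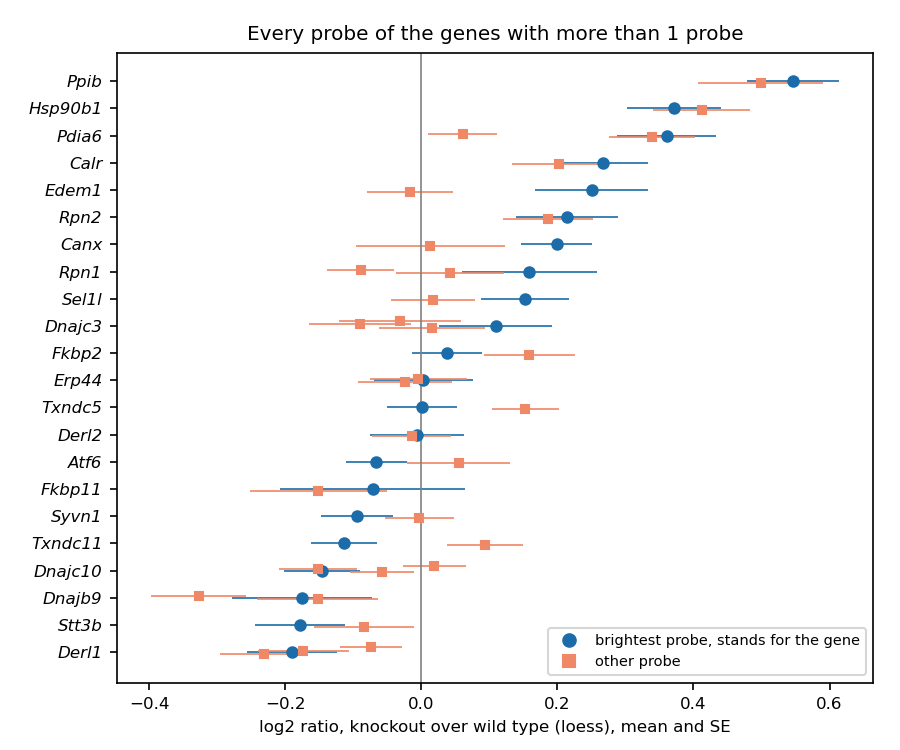
Log2 ratio of knockout over wild type with SE (x axis, loess) of every fitted probe of the 22 ER genes with more than 1 (rows). Circles are the brightest probe, which stands for the gene, and squares are its other probes. Probes of Ppib and Hsp90b1 lie together, whereas 1 probe of Pdia6 and the second probes of Edem1 and Canx lie near 0.

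A wider set of 101 other ER genes with the same roles was drawn up beside the list, and 97 were tested. Of these 10 (10.3%) were higher and 5 (5.15%) lower with loess, near the shares of all genes, and their median was 0.0060. With median centring 84 were higher and 3 lower. Of 18 other chaperones and isomerases 2 rose. Cnpy2 was at 0.31, 0.53, 0.47 and 0.32 (0.41 ± 0.054, n = 4 arrays, limma adjusted p = 0.0045). Fkbp9, a prolyl isomerase, was higher at 0.21 ± 0.048 but not without replicate 2, 3 or 4 (limma adjusted p = 0.068 to 0.12), and Creld1, a relative of Creld2, was at -0.19 ± 0.053 (limma adjusted p = 0.051). Creld1 passed as lower without background correction, with the strict filter, the mean of probes or array weights, and without replicate 2 (limma adjusted p = 0.026 to 0.047), whereas with median centring it was at 0.20.

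Among 14 other redox genes of the ER, 4 were higher and 1 lower. Vkorc1, the vitamin K epoxide reductase, was at 0.16, 0.45, 0.41 and 0.44 (0.36 ± 0.060, n = 4 arrays, limma adjusted p = 0.0095). The ER peroxidase gene Gpx8 was at 0.42, 0.48, 0.20 and 0.28 (0.35 ± 0.058, n = 4 arrays, limma adjusted p = 0.0099). Gpx7, of the same family, was higher at 0.27 ± 0.056, but not without replicate 3 or 4 (limma adjusted p = 0.076 and 0.083). The oxidase gene Ero1b, which reoxidises the disulfide isomerases in pancreas, was at -0.52, -0.014, -0.40 and -0.037 and did not pass (-0.24 ± 0.090, n = 4 arrays, limma adjusted p = 0.12). It was close to 0 on arrays 2 and 4 and low on arrays 1 and 3, and with median centring it was at 0.24. Prdx4, an ER peroxiredoxin, was at 0.17 ± 0.058 (limma adjusted p = 0.093).

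Among 29 tested genes of sugar chain assembly and trimming, 3 rose and 1 fell with loess. The subunits of glucosidase II, which trims glucose before calnexin binding, had opposite signs with loess, and their difference was not tested. Its beta subunit Prkcsh was at 0.30, 0.35, 0.43 and 0.32 (0.35 ± 0.045, n = 4 arrays, limma adjusted p = 0.0044). Its catalytic subunit Ganab was at -0.23, -0.27, -0.24 and -0.27 (-0.25 ± 0.042, n = 4 arrays, limma adjusted p = 0.0103). The values of Ganab were close together on the 4 arrays, but with the mean of its probes it was at -0.040 and with median centring at 0.31. Ost4, a small subunit of the oligosaccharyltransferase, was higher at 0.29 ± 0.061, but not without replicate 3 or 4 (limma adjusted p = 0.052 and 0.074).

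Of 25 other tested degradation genes, 1 was higher and 2 were lower. Erlec1, a lectin that delivers glycoproteins to the ligase, was at 0.20 ± 0.053, but not past the threshold without replicate 2, 3 or 4 (limma adjusted p = 0.103 to 0.14), nor with the deposited processed signals or log ratio (0.058 and 0.055). Ube2j1, the ubiquitin-conjugating enzyme of that ligase, was at -0.23 ± 0.057 (n = 3 arrays) and lost its call without any 1 of the 4 replicates (limma adjusted p = 0.057 to 0.17). Bag6, a cytosolic chaperone of released proteins, was at -0.22, -0.81, -0.66 and -0.13, below 0 but spread (-0.46 ± 0.11, n = 4 arrays, limma adjusted p = 0.036). It did not pass without replicate 1, 2 or 3 (limma adjusted p = 0.054 to 0.101), and with the mean of its probes it was at -0.14. With median centring Ube2j1 and Bag6 were at 0.22 and 0.081.

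Of 11 other sensors and regulators, 1 was lower and 0 higher. Eif2ak3 encodes Perk, the sensor that slows translation under ER stress. It was at -0.44, -0.66, -0.35 and -0.66, far below 0 on every array (-0.53 ± 0.065, n = 4 arrays, limma adjusted p = 0.0038), and it passed without any single replicate. With median centring it was at -0.077, or -0.33 after subtraction of the all-gene median, and did not pass against 0. Atf6b, the relative of Atf6, was at -0.19 ± 0.061 (limma adjusted p = 0.075) and passed without replicate 3 (-0.26, limma adjusted p = 0.038), whereas with median centring it was at 0.20. Creb3 was at 0.11 ± 0.048, and Bhlha15, the acinar factor Mist1, at 0.060 ± 0.046, neither past the threshold.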

How the data were processed

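The submitters' processing notes name Agilent Feature Extraction 10.5.1.1, with which the authors quantified the spots. The deposited files hold, per the file headers, median signals, local backgrounds and processed signals as intensity on a linear scale, a log10 ratio of red over green, and marks for spots. Median signals were corrected with normexp (offset 50) and normalised within arrays by loess (span 0.3) with limma 3.58.1 (R 4.3.3). Non-uniform spots were left out. Probes were named through RefSeq accessions (GRCm38.p6 gene table) for 25097 of 41174 probes. The array headers give another build, and coordinates printed here are only those of the RefSeq promoter table. Probes entered the test if well above background in 1 channel on at least 3 arrays and measured on at least 3 (2 where 1 replicate was left out). The brightest probe stood for a gene. Log2 ratios were fitted against 0 with lmFit and eBayes, which keeps the pairing of extracts on an array, and p-values are two-sided and adjusted by the Benjamini-Hochberg method over 15524 genes. On simulated data for this comparison over 15524 genes, 57 of 67 changes of 1.5-fold and 19 of 67 of 1.2-fold were recovered. The same simulation gave 9 false calls. The labels call the arrays biological replicates, and p-values measure the spread between these 4 arrays, whose number limits the precision. Per-array values are given for ER genes past the threshold, for the highest and lowest of each group and for Hspa5, Xbp1, Atf6 and Ern1. Of the other ER lists, the 3 with the smallest p of each are named, as are Ero1b, Eif2ak3, Bhlha15 and Prdx4. Genes of the list whose probes differed in sign are named. Probes whose call differed from that of another probe of their gene are named too. Per-array values of other genes were added after seeing the data. The members, lists and tests were chosen with earlier results of these data known.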

Additional observations from a re-analysis of the deposited data

Results flagged for a closer look

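Sdf2l1 was at 0.082 on array 1, far below its values of 0.28 to 0.31 on the other arrays. Its gap to the nearest value exceeded Dixon's 95% critical value for 4 values. It was the only such case among the 36 ER genes with values on 4 arrays, and chance alone gives about 1 in 20.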

How the results depend on the processing

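Of the ER genes, 9 were higher with loess, 40 with median centring and 0 with single channels and no array as a block, which was the fit without the replicate block. Leaving out 1 replicate gave 2 to 10 higher and 0 to 3 lower. Array weights gave 1 lower (Edem3), beside 881 of all 15524 genes tested there. Keeping non-uniform spots also gave 1 lower (Herpud1), beside 820 of 15704. Of the other ER genes, higher and lower numbered 84 and 3 with median centring, 0 and 0 with single channels, and 4 to 9 and 2 to 4 without 1 replicate; trended robust eBayes gave 3 lower. Of all genes they numbered 9471 and 2451, 77 and 30, and 659 to 1015 and 369 to 649. Trended robust eBayes gave 586 lower of all 15524. The single-channel fit drops the pairing on the array; the cause of the other changes was not tested.

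With median centring the median of the ER genes was 0.64, that of the chaperones 0.77, disulfide enzymes 0.54, prolyl isomerases 0.55, glycosylation 0.64, degradation 0.52 and sensors 0.46. Values below 0 with loess were above it with median centring for Dnajb9 (0.26), P4hb (0.48), Txndc11 (0.41), Dnajc10 (0.28), Fkbp11 (0.46), Uggt1 (0.29), Stt3b (0.28), Derl2 (0.40), Syvn1 (0.29), Derl1 (0.20), Edem3 (0.0027), Atf6 (0.46), Ern1 (0.23), Atf6b (0.20), Ganab (0.31), Creld1 (0.20), Bag6 (0.081), Ube2j1 (0.22), Ero1b (0.24) and Ptf1a (0.41).

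Values near 0 had no stable sign. Erp44 was at -0.00091 without background correction, -0.020 and -0.014 with the deposited processed signals and log ratio, -0.012 with span 0.7, -0.0015 with scaling between arrays, -0.0086 with the mean of probes and -0.013 with array weights. Txndc5 was at -0.0030 without background correction, -0.016 with span 0.7, -0.0089 with scaling and -0.012 with array weights. Derl2 was at 0.0019 and 0.0061 with the deposited processed signals and log ratio, and at 0.0077 with span 0.7. Array weights put P4hb at 0.023 and Fkbp11 at 0.0046. The sensors' median was -0.0057 with the mean of probes. Leaving out 1 replicate gave -0.0040 to 0.17 for Pdia2, -0.085 to 0.051 for Erp44, -0.025 to 0.029 for Txndc5, -0.11 to 0.15 for P4hb, -0.23 to 0.16 for Fkbp11, -0.013 to 0.10 for Dad1, -0.077 to 0.057 for Derl2, -0.32 to 0.082 for Ptf1a and -0.077 to 0.083 for the degradation median.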

Other observations

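Of the 6 acinar transcription factors tested, 1 was higher in limma (Rbpjl) and 0 lower. Ptf1a, the defining factor of the acinar lineage, was at -0.61, 0.58, -0.58 and 0.24 on the 4 arrays and missed the threshold (-0.091 ± 0.19, limma adjusted p = 0.79). Without replicate 1 or 3 its mean was above 0 (0.082 and 0.072), and with median centring it was at 0.41. Its partner Rbpjl was at 0.20, 0.38, 0.37 and 0.66 and rose by 0.403 ± 0.073 (limma adjusted p = 0.013). Among the acinar products, Gp2 fell by 1.52 on the log2 scale and Spink1 rose by 1.04, each with 1 sign on all arrays.

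Albumin, a liver product, was at 4.13, 2.70, -3.52 and 1.44 on arrays 1 to 4, and Afp at 2.40, 2.15, -2.02 and 2.12. Neither passed over the 4 arrays, and both passed without replicate 3 (2.76 and 2.22, limma adjusted p = 0.0085 and 2.7e-05). The median of the ER genes on array 3 (0.064) lay between those on arrays 1 and 4. Whether the ER ratios are related to the liver transcripts was not tested.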
